A study of Mus musculus with 4 samples.

Results

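Classical interferon-stimulated genes were examined in cultured helper T (Th) cells, as a list of 44 genes that leaves out the Irf and Stat factors. The rule picks them by gene name and uses no measured value, but the list was chosen with earlier results of these data known. Of these genes, 42 had a probe that could be named, 41 were well above background on at least 1 array and 40 were so on all 4 arrays, out of 18749 named genes on the array. Mx1 and Mx2 were not analysed here, and no array gave Oas1g a signal well above background. The members were described in 7 groups by their known roles.

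The transcripts came from Th cells of C57BL/6J mice, all labelled female. The cells labelled Bach2 KO carried Bach2flox/flox with a CD4-Cre transgene, in which Cre is driven by Cd4 regulatory sequences and so acts in T lineage cells, and the cells labelled Bach2 WT were the control, with CD4-Cre alone as the study names its controls. Naive CD4 T cells of the spleen were stimulated for 2 days with mAbs to TCR-β (immobilized, 3 μg/ml) and CD28 (1 μg/ml), and then cultured for 3 more days, under IL-2 conditions (2.5 ng/ml). RNA was taken either then ("before") or following 4 h on immobilized anti-TCR-β mAb with no added IL-2 ("after"). Each of the 4 conditions was read on 1 single-colour Agilent array, so no difference below has a replicate check and no test was made.

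Interferons act on neighbouring cells and on the cells that make them. Type I interferons (IFN-α and IFN-β) signal through Jak kinases to a complex with Stat2 and Irf9 that binds the interferon-stimulated response element (ISRE), and IFN-γ, the main product of activated Th1 cells, also signals through Jak kinases, to factors that bind the gamma-activated sequence (GAS). The induced genes block viral entry and replication, sense foreign nucleic acids, conjugate Isg15, attack vacuoles of intracellular microbes and feed peptides to MHC class I. Bach2 is a transcriptional repressor of lymphocytes that binds motifs of the AP-1 type.

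The Bach2 probe gave scaled signals of 2555 (WT) and 2305 (Bach2 KO) in unstimulated cells, and of 4024 and 3319 in re-stimulated ones, log2 differences of -0.15 and -0.28, and so was no clear check of the genotype labels. Both arrays labelled Bach2 KO gave 3 of 4 Y-linked genes a signal well above background and both WT arrays gave 0, against the female label. Xist, made from the inactive X chromosome of females, was well above background on all 4 arrays, at 8300.4 and 4048 before re-stimulation (WT, then Bach2 KO) and 6349 and 2786 in re-stimulated cells, so the Bach2 KO arrays held transcripts of both kinds. A difference between the genotypes and one in the sex of the cells cannot be told apart. Of 10 mast cell and basophil markers, 7 passed the background flag on each Bach2 KO array, and 3 and 2 on the WT arrays (before, then after), with summed scaled signals of 1162 and 2111 against 176 and 515. The WT sums rested largely on Hdc (111 and 316) and Cd200r3 (36.3 and 198). Cpa3, Mcpt8 and Fcer1a passed the flag on neither WT array. They were at least 22.5-fold, 20.5-fold and 4.94-fold higher in Bach2 KO cells before re-stimulation, and Prss34 was 8.96-fold higher. Hdc, Cd200r3 and Gata2, the last as a bound, stayed under 2-fold then. All 12 T cell identity genes were well above background on every array and none differed by 2-fold in any comparison. No array passed the background flag for Siglech, a defining marker of plasmacytoid dendritic cells, Lyz2 and Itgam of myeloid cells, Cd79a and Ms4a1 of B cells or Ncr1 of NK cells. Other genes of these lists did pass it on all 4 arrays, among them Cd79b of the B cell list, within 2-fold between genotypes. Adgre1 of the myeloid list was 2.23-fold higher in Bach2 KO cells before and 2.95-fold higher after re-stimulation, Mpeg1 of that list 2.74-fold higher before, and Eomes of the NK list, which T cells can also express, 3.06-fold higher before. Summed over markers that passed the flag, the myeloid signal was 206 in WT and 425 in Bach2 KO cells before and 593 and 546 after, and the NK signal 563 and 1139.7 before and 1486 and 1377 after. The sum for the 7 plasmacytoid dendritic cell markers, of which 3 to 5 passed the flag on an array, ran 347 and 660 before, then 1668 and 3275 in re-stimulated cells, and rested largely on Runx2 (128, 372, 1267 and 2820.0 in the same order), while Tcf4 differed by -0.04 and 0.04 between genotypes on the log2 scale. The part of any of these cell types in the results was not tested. In bulk RNA, fewer cells that carry a transcript and less of it per cell cannot be told apart.

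Promoter sequence was at hand for 33 of the 44 members, in windows of 250 bases before and 50 bases after each gene's start (RefSeq, GRCm38.p6). An ISRE-like run of letters (GAAA, any 2 bases and GAAA, on either strand) lay in 18 of these 33 windows (54.5%) against 3.99% of 27025 genes. A GAS-like run, TTCNNNGAA, read on both strands like the next, lay in 10 of the 33 (30.3%, against 9.55% of genes), and an AP-1-like run, TGANTCA, in 8 (24.2%, against 8.97%). Among the 14 members with a window that were at least 2-fold higher in Bach2 KO cells before re-stimulation, 9 held the ISRE-like letters, 3 the GAS-like and 6 the AP-1-like ones. Among the 18 measured members with a window that differed by less, 8 held the ISRE-like, 7 the GAS-like and 2 the AP-1-like letters. In Bst2 the GAS-like run overlapped the ISRE-like one. These matches describe letters and were not tested as binding sites. The following stretches lie before the gene start of the members that were at least 2-fold higher in Bach2 KO cells before re-stimulation and held a match there, written 5′ to 3′ on the strand of the gene, with the ISRE-like letters in capitals. They are examples picked by their match and by the difference described next, and no link between the match and the difference was tested. Isg20, Oasl1, Oasl2, Ifi44 (as a bound) and Xaf1, also at least 2-fold higher then, held no ISRE-like match in their windows. Eif2ak2, at least 2-fold higher too, held its only match after its gene start, at bases 19 to 28. The stretch of Ifit1 is chr19:34640765-34640833, that of Ifit3 chr19:34583353-34583436 and that of Gbp2 chr3:142620584-142620633, all on the plus strand. The stretch of Rsad2 is chr12:26456543-26456592, that of Oas1a chr5:120907526-120907565, of Oas3 chr5:120777705-120777754, of Isg15 chr4:156200855-156200916 and of Irgm1 chr11:48871421-48871470, all on the minus strand.
Ifit1: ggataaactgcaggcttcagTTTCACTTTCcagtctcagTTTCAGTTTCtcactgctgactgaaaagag
Ifit3: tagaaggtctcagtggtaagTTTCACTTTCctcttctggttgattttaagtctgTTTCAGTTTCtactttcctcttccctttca
Rsad2: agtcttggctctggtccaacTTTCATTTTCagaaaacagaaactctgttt
Oas1a: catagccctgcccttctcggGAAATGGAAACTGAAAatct
Oas3: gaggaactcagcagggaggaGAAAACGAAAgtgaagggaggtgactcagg
Isg15: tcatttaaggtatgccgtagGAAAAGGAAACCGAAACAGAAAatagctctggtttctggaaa
Irgm1: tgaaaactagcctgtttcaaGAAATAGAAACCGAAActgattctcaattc
Gbp2: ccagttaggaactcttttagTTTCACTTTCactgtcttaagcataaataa

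Isg15 held 3 overlapping matches in a row, while Ifit1 and Ifit3 each held a pair set apart. For contrast, Bst2 (chr8:71537567-71537622) and Ifitm2 (chr7:140955978-140956027), both on the minus strand, held the same letters before their starts and stayed under 2-fold in each of the 4 comparisons. Igtp (chr11:58199502-58199551), on the plus strand, held them too and also stayed under 2-fold, but narrowly. Its log2 values were 0.97 for re-stimulation in WT cells and 0.84 between genotypes before. The re-stimulation difference of Igtp was smaller in Bach2 KO cells by a log2 value of -1.61. Gbp3, with 2 such matches before its start, was just under 2-fold between genotypes before re-stimulation.
Bst2: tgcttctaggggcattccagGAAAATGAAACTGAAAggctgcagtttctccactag
Ifitm2: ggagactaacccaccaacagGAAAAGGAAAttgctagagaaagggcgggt
Igtp: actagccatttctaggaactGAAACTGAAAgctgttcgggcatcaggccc

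Before re-stimulation, interferon-stimulated genes were higher in the cells labelled Bach2 KO. Of 41 members used, 18 (43.9%) were at least 2-fold higher and 0 were at least 2-fold lower, where 5.26% of all genes used were at least 2-fold higher and 2.82% at least 2-fold lower. The difference lay above 0 for 39 of the 41, against 49.3% of all genes, and the members' median log2 difference was 0.84 against -0.003 over all genes. The 2 members below 0 were Ifitm2 and Ifitm3. After 4 h of re-stimulation fewer members differed, and 4 were at least 2-fold higher in Bach2 KO cells (9.76%, against 5.17% of all genes), 1 was at least 2-fold lower (2.44%, against 3.85%), and the median was -0.10. Of the 41, 24 (58.5%) lay below 0, against 48.1% of all genes. These genotype differences before and after share no array. The last members inside the 2-fold rule before re-stimulation were Oas3 at a log2 difference of 1.03, with Gbp3 just outside at 0.99. After it they were Isg15 at 1.03 and Oas1a at 0.998.

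**Figure D1:**
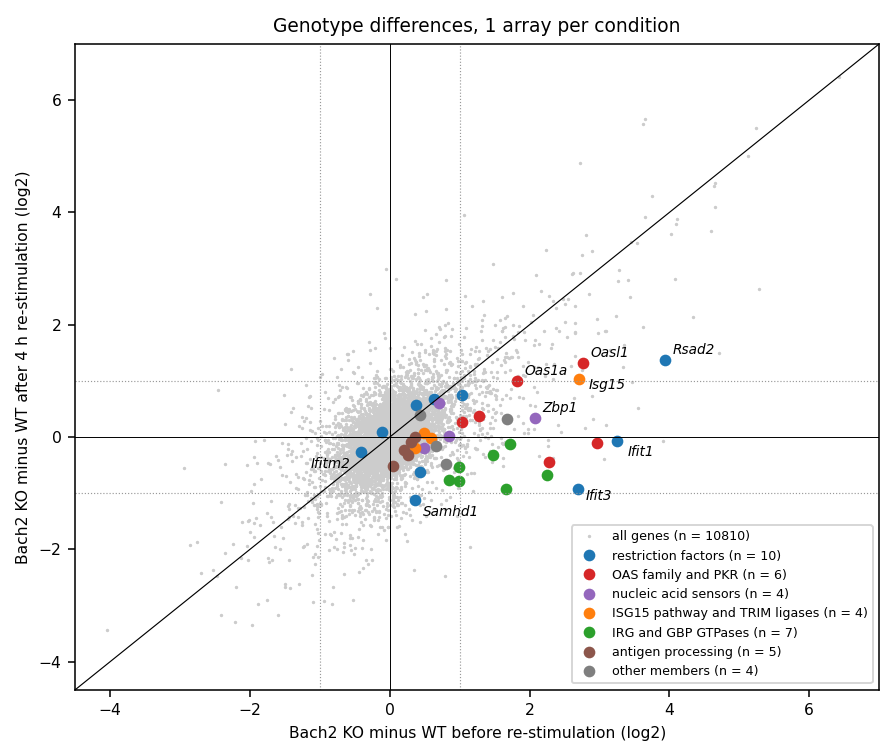
Log2 difference between the array labelled Bach2 KO and the WT array before (x axis) and after (y axis) 4 h of re-stimulation, for 10810 genes well above background on all 4 arrays (grey) and 40 interferon-stimulated genes coloured by role, with the diagonal and dotted lines at 2-fold. Of the 40, 38 lie to the right of 0 and 23 lie to the right of 0 on the x axis and below 0 on the y axis.

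On re-stimulation these genes rose more in WT than in Bach2 KO cells. The WT rise and the genotype difference before re-stimulation both use the single earlier WT array, so they are not separate results. A low reading on that array would enlarge both, and would also make the re-stimulation difference look smaller in Bach2 KO cells. Whether this happened was not tested. In WT cells 24 of the 41 members (58.5%) rose at least 2-fold and 0 fell as much, where 13.2% of all genes rose and 13.5% fell, and the members' median was 1.52. In Bach2 KO cells 11 of 41 (26.8%) rose at least 2-fold and 0 fell as much, where 12.4% of all genes rose and 13.0% fell, and the median was 0.46. Among the 40 members well above background on all arrays, 10 rose at least 2-fold in both genotypes (25.0%, against 7.67% of 10810 genes), 13 in WT cells and not in Bach2 KO cells (32.5%, against 3.01%), and 0 in Bach2 KO cells and not in WT cells (against 2.26%). The re-stimulation difference was at least 2-fold smaller in Bach2 KO cells for 19 of the 40 (47.5%, against 3.00% of all genes), and smaller by any amount for 36 of them (90.0%, against 50.5%). It was at least 2-fold larger in Bach2 KO cells for 0 of the 40, against 1.82% of all genes. The median of this difference between genotypes was -0.87 on the log2 scale. Scaling each array to its median in place of its 75th percentile shifted the median of all genes by -0.30 in WT and -0.26 in Bach2 KO cells after re-stimulation, and the share of rises among all genes past 2-fold went from 49.3% to 29.1% in WT and from 48.9% to 30.8% in Bach2 KO cells. The last members inside the rule were Parp9 at 1.08 in WT cells, with Samhd1 outside at 0.99, and Ifit3 at 1.01 in Bach2 KO cells, with Dhx58 outside at 0.94.

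**Figure D2:**
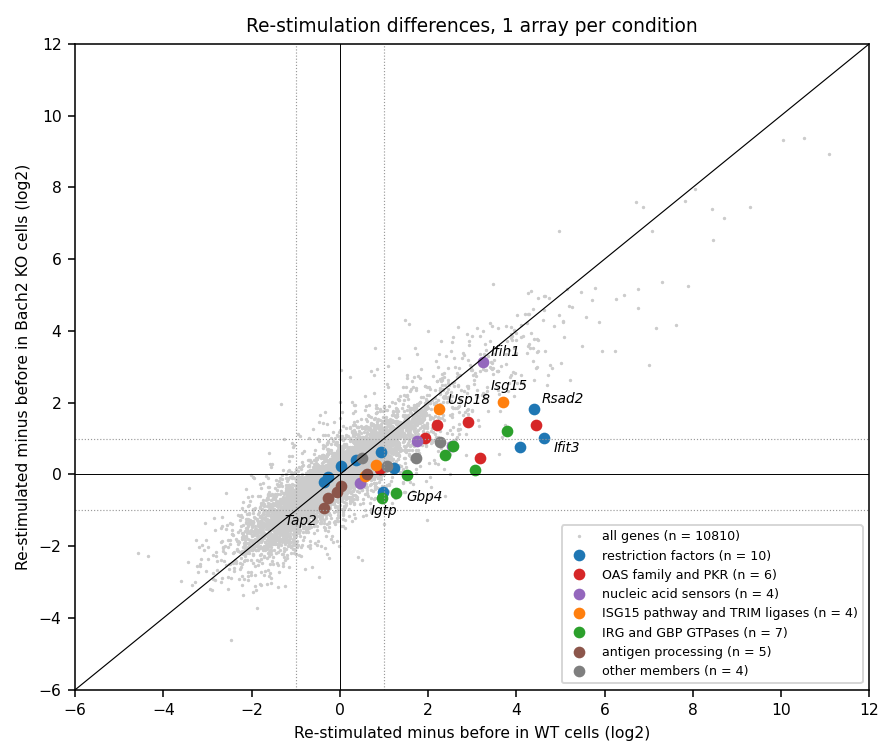
Log2 difference between re-stimulated and earlier cells in WT (x axis) and Bach2 KO cells (y axis), for 10810 genes well above background on all 4 arrays (grey) and 40 interferon-stimulated genes coloured by role, with the diagonal and dotted lines at 2-fold. Of the 40 members, 36 lie below the diagonal, and Ifih1 (3.25 in WT and 3.15 in Bach2 KO cells) lies close to it.

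Measures of error within these data come from single arrays. Probes of the same gene differed by a median standard deviation of 0.09 to 0.15 in the log2 differences, over 3852 genes, and the scanner's own error model gave the members' differences an error of 0.20 to 0.23. Neither covers the spread between mice or cultures. In what follows, signals are scaled to a common 75th percentile, so that their ratio within a gene is the fold, and each is from the brightest probe of the gene. Signals of different probes were not set against each other. Counts below per role and per list stand beside the shares of all genes past 2-fold between genotypes. These were 5.26% higher and 2.82% lower in Bach2 KO cells before re-stimulation, and 5.17% and 3.85% after it.

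**Figure D3:**
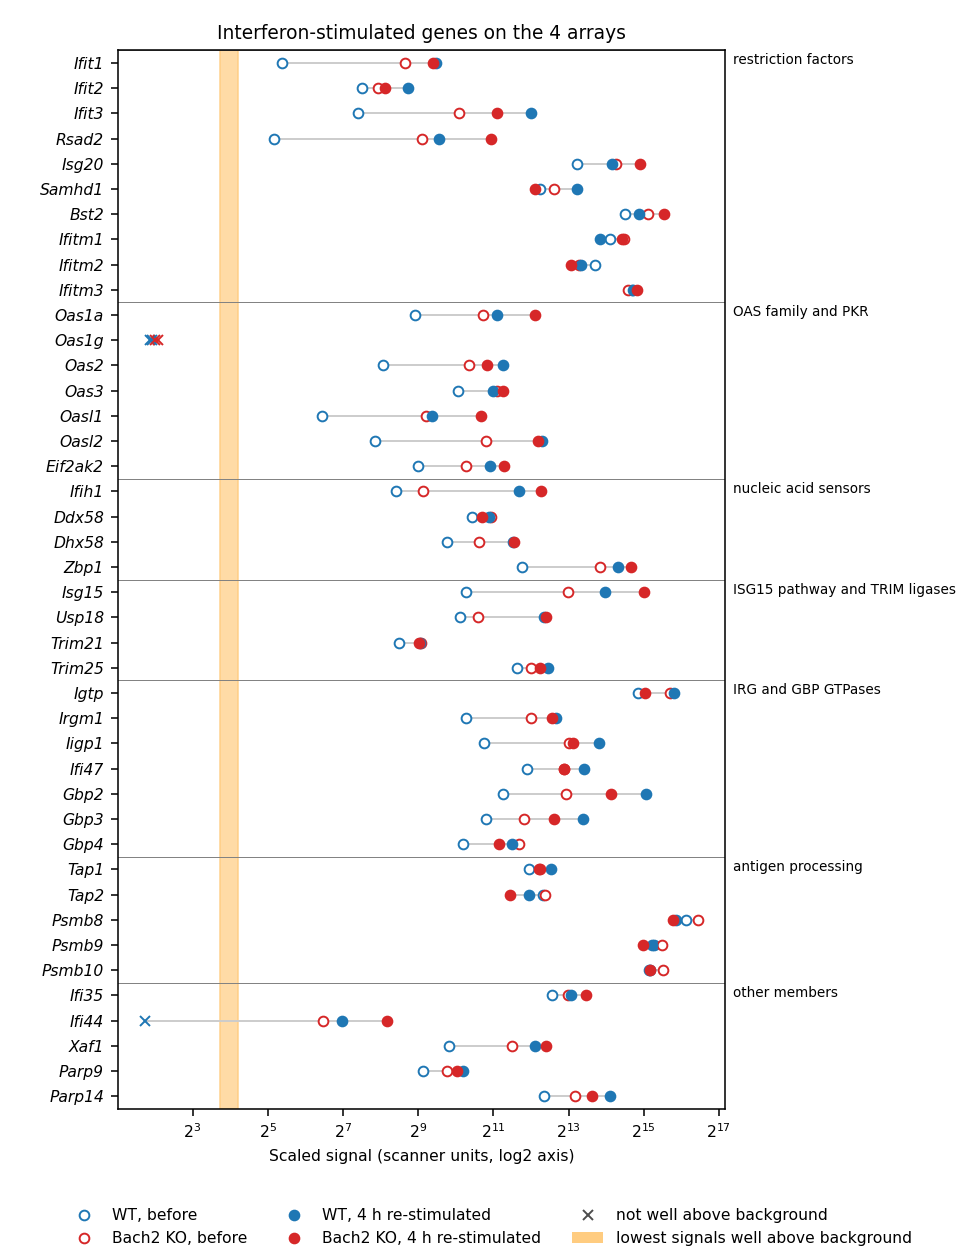
Scaled signal (log2 axis, scanner units) of the 42 named interferon-stimulated genes on the 4 arrays, grouped by role, with open circles before and filled circles after re-stimulation, WT in blue and the cells labelled Bach2 KO in red, crosses for signals not well above background, and grey lines from the lowest to the highest signal. The WT signal before re-stimulation is the lowest of the 4 for most genes of the OAS, GTPase and Ifit groups, while the antigen processing genes span little.

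Restriction factors act directly on viral RNA, membranes or nucleotides. Of 10 measured, 4 were at least 2-fold higher in Bach2 KO cells before re-stimulation, against 5.26% of all genes. Rsad2 (viperin), which makes a chain-terminating nucleotide, had the largest difference of all members. Its signal was 35.9 in WT and 549.7 in Bach2 KO cells earlier, and 758 and 1961 in re-stimulated cells. This was 15.3-fold higher in Bach2 KO cells before and 2.59-fold after (log2 3.94 and 1.37), and Bach2 KO cells gave the higher signal in both states. A pair of dimmer Rsad2 probes did not pass the background flag on the earlier WT array and gave genotype differences of 1.60 and 1.20 on the log2 scale in re-stimulated cells. Ifit1, which binds foreign RNA at its 5′ end, and Ifit3, its partner, did not keep such a difference. Ifit1 read 42.0 and 402 before re-stimulation, then 709 and 678 after it (WT, then Bach2 KO). It was 9.56-fold higher in Bach2 KO cells before, and WT cells rose 16.9-fold on re-stimulation to a level within a log2 difference of -0.06. Ifit3 read 168 and 1086 before, and 4134 and 2185 after. WT cells rose 24.7-fold, the largest rise of any member, and ended above the Bach2 KO cells (log2 -0.92), which rose 2.01-fold.

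Ifit2, of the same family, read 182 and 247 before re-stimulation, then 428 and 279 after it. It rose 2.35-fold in WT cells, and the log2 difference in Bach2 KO cells was 0.18, turning to -0.08 with scaling to the median. Isg20, an exonuclease of single-stranded RNA, read 9520.3 and 19504 before, and 18179.6 and 30386 after, and was 2.05-fold higher in Bach2 KO cells before re-stimulation and 1.67-fold higher after it. Its second probe gave similar log2 differences of 0.97 and 0.72. Samhd1, which hydrolyses dNTPs, read 4835 and 6231 before, and 9589 and 4411 after. It was the only member at least 2-fold lower in Bach2 KO cells, by 2.17-fold after re-stimulation, where the WT signal stood at its highest and the Bach2 KO signal at its lowest.

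The membrane factors were strong on every array and stayed under 2-fold in every comparison. Bst2 (tetherin), which holds budding virions at the cell surface, read 23121 and 35682 before, and 29815 and 47594 after. Ifitm1, which like its relatives blocks fusion of virus and cell membranes, read 17599 and 22938 before, and 14611 and 21748 after. Ifitm3 read 26415 and 24428 before, and 27022 and 28791 after. For Bst2 and Ifitm1 the Bach2 KO signal was the higher in both states, with log2 differences between 0.38 and 0.67, and for Ifitm3 they lay between -0.11 and 0.09. Ifitm2 gave -0.41 and -0.27.

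The OAS family makes oligoadenylates that switch on RNase L, and Eif2ak2 (PKR) halts translation on binding double-stranded RNA. All 6 genes measured were at least 2-fold higher in Bach2 KO cells before re-stimulation, with a median log2 difference of 2.05. With scaling to the median, Oas3 gave a log2 difference of 0.97 there, just under 2-fold. Oasl2, an OAS-like protein, read 231 and 1804 before re-stimulation, then 5013 and 4654 after it. It was 7.81-fold higher in Bach2 KO cells before and differed by a log2 value of -0.11 after, with a 21.7-fold rise in WT cells against 2.58-fold in Bach2 KO cells. Oasl1, a restraint on translation of Irf7, read 87.1 and 592 before, and 656 and 1637 after. It kept a difference past 2-fold in both states, 6.79-fold and 2.49-fold. Oas2 read 269 and 1303 before, and 2444 and 1807 after. It was 4.84-fold higher in Bach2 KO cells before re-stimulation and 1.35-fold lower after it.

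Oas1a read 479 and 1693 before re-stimulation, then 2204 and 4403 after it, with log2 differences of 1.82 and 0.998, the second at the edge of the 2-fold rule. Oas3 read 1075 and 2197 before, and 2028 and 2450.3 after, so that re-stimulation moved it by less than 2-fold in both genotypes (log2 0.92 and 0.16). Its value in Bach2 KO cells turned to -0.11 with scaling to the median, and its dimmer probe gave 1.08, past 2-fold, in WT and 0.60 in Bach2 KO cells. Eif2ak2 read 508 and 1229.8 before, and 1933 and 2492 after, a difference of 2.42-fold before and 1.29-fold after. Oas1g, a near copy of Oas1a, stayed between 3.64 and 4.24 on the 4 arrays, all under the background flag.

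Sensors of foreign nucleic acids did not move as one. Ifih1 (MDA5), the sensor of long double-stranded RNA, rose by close amounts in both genotypes. It read 342 and 559 before re-stimulation, then 3259 and 4949 after it, rises of 9.53-fold in WT and 8.85-fold in Bach2 KO cells, with the Bach2 KO signal the higher in both states by less than 2-fold (log2 0.71 and 0.60). Zbp1, a sensor of Z-form nucleic acids that can start necroptosis, read 3491 and 14691 before, and 20308 and 25708 after. It was 4.21-fold higher in Bach2 KO cells before, and a 5.82-fold rise in WT cells against 1.75-fold in Bach2 KO cells left 1.27-fold between them. Dhx58 (LGP2), a regulator of both RNA helicase sensors, read 874 and 1567 before, and 2947 and 3003 after, and rose 3.37-fold in WT cells. Ddx58 (RIG-I) ranged from 1384 to 1950 and differed by less than 2-fold in every comparison, although 1 of its dimmer probes gave -0.99 for re-stimulation in Bach2 KO cells where its brightest gave -0.23.

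Isg15 is a ubiquitin-like protein that is conjugated to others and also secreted. It read 1239 and 8107 before re-stimulation, then 16029 and 32824 after it. Bach2 KO cells were 6.55-fold higher before and 2.05-fold higher after, and its signal was lowest in WT cells before and highest in Bach2 KO cells after re-stimulation. Usp18, which removes Isg15 and damps the type I receptor, read 1099 and 1549 before, and 5218 and 5454 after. It rose 4.75-fold in WT and 3.52-fold in Bach2 KO cells, with genotype differences of 0.50 and 0.06. Trim21, a cytosolic antibody receptor and ubiquitin ligase, ranged from 357 to 537, and Trim25, a ligase known for acting on RIG-I, from 3170 to 5560, with no difference past 2-fold. The dimmer probe of Trim25 disagreed with this: it gave 1.24 and 0.67 for the genotype differences before and after, and 2.21 and 1.64 for re-stimulation in WT and Bach2 KO cells.

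The immunity-related GTPases (IRG) and guanylate-binding proteins (GBP), which attack the vacuoles of intracellular microbes and are strongly induced by IFN-γ, lay on opposite sides of 0 before and after re-stimulation. All 7 lay above 0 before re-stimulation in Bach2 KO cells, with 4 past 2-fold and a median log2 difference of 1.48, and all 7 lay below 0 after it, with 0 past 2-fold and a median of -0.68. These counts of directions were the same under every alternative scaling. The re-stimulation difference was at least 2-fold smaller in Bach2 KO cells for each of the 7, against 3.00% of all genes. Gbp2 read 2464 and 7793 before re-stimulation, then 34078 and 18056 after it. It rose 13.8-fold in WT and 2.32-fold in Bach2 KO cells, so that the genotype difference went from 3.16-fold higher to 1.89-fold lower in Bach2 KO cells. Iigp1 read 1726 and 8194 before, and 14352 and 8969 after. Its signal rose 8.32-fold in WT cells, and in Bach2 KO cells the log2 difference was 0.13, turning to -0.13 with scaling to the median.

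Irgm1, a regulatory GTPase that guards the cell's own membranes, read 1245 and 4116 before re-stimulation, then 6519 and 5987 after it. It was 3.31-fold higher in Bach2 KO cells before, and its second probe gave nearly the same log2 difference, 1.69 against 1.72. Igtp (Irgm3) read 29434 and 52862 before, and 57494 and 33758 after, and Ifi47 read 3823 and 7559 before, and 10955 and 7550.2 after. For Igtp the log2 values of re-stimulation were 0.97 in WT and -0.65 in Bach2 KO cells, and for Ifi47 the WT cells rose 2.87-fold while the Bach2 KO signal stayed where it was. Gbp3 read 1802 and 3589 before, and 10701 and 6249.8 after. Gbp4 read 1178 and 3276 before, and 2868 and 2293 after. For Igtp, Ifi47, Gbp3 and Gbp4 alike the Bach2 KO signal was above WT before and below it after re-stimulation. Gbp3 rose 5.94-fold in WT cells, and Gbp4 rose 2.44-fold in WT cells with a log2 value of -0.51 in Bach2 KO cells.

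Genes of antigen processing, the immunoproteasome subunits and the peptide transporter, showed no difference of this size: 0 of 5 passed 2-fold in any comparison, apart from Tap2 under another scaling. Psmb8 read 71836 and 88374 before re-stimulation, then 59638 and 55782 after it. Psmb9 read 39454 and 45630.0 before, and 37903 and 32338 after. Psmb10 read 36124 and 46372 before, and 37002 and 36822 after. All 3 subunits gave their highest signal in Bach2 KO cells before re-stimulation. The genotype differences of the 5 genes ran from 0.05 to 0.36 before and from -0.52 to -0.01 after, with Tap2 before and Psmb10 after changing sign in some scalings. Tap1 ranged from 3921 to 5969, and Tap2 from 2763 to 5272 with its lowest signal in re-stimulated Bach2 KO cells, a log2 value of -0.93 against the cells before re-stimulation that passed 2-fold, at -1.20, with scaling to the median.

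Of the other members, Ifi44, an antiviral protein, did not pass the background flag on the earlier WT array, at a signal of 3.35. It read 89.3 in Bach2 KO cells before, and 125 and 289 after, and so was at least 6.78-fold higher in Bach2 KO cells before re-stimulation and 2.31-fold higher after it, and rose at least 9.50-fold in WT cells. These bounds were set at the lowest signal well above background on the WT array. Xaf1, a partner of the apoptosis inhibitor Xiap, read 902 and 2891 before, and 4384 and 5456 after, with a 3.21-fold difference before and a 1.24-fold one after. Parp14, an ADP-ribosyltransferase, read 5254 and 9153 before, and 17465 and 12549 after, and rose 3.32-fold in WT cells. Its genotype difference before was 0.80 on the log2 scale, where its dimmer probes gave 1.09, past 2-fold, and 0.67. For re-stimulation in Bach2 KO cells it gave 0.46, and those probes -0.02 and 0.39. Parp9, the partner of Parp14, read 555 and 876 before, and 1169.8 and 1041 after, a 2.11-fold rise in WT cells. Ifi35 ranged from 6028 to 11217 with log2 differences between 0.40 and 0.49 in the 4 comparisons.

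The members fell along more than 1 pattern. The genotype difference was smaller in size after re-stimulation than before for 33 of 40 members (82.5%), where this held for 44.8% of 10810 genes. It was above 0 before and below 0 after for 23 of 40 (57.5%, against 15.0%), a set that held all 7 GTPases and the antigen processing genes. This share depends on how many were above 0 before, 38 of 40 members (95%) against 49.1% of all genes. Of those 38 members 23 lay below 0 after, and of 5307 such genes 1625 did. For some of the 23 the later value was smaller than the scanner error of 0.20, such as Psmb10 (-0.01), Trim21 (-0.02) and Ifit1 (-0.06). The genotype difference was at least 2-fold higher in both states for 3 (7.50%, against 1.69%), Rsad2, Oasl1 and Isg15, and Ifi44, with its bound, met the same rule.

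The pathway upstream was read from lists of its ligands, receptors, factors and inhibitors. Ifng, which encodes IFN-γ, read 305 in WT and 1029 in Bach2 KO cells before re-stimulation, and 192885 and 180644 in re-stimulated cells. It was thus higher in Bach2 KO cells before (log2 1.75), differed by -0.09 after, and had its highest signals on both re-stimulated arrays. Of the type I interferons, Ifnb1 was well above background in re-stimulated Bach2 KO cells alone, at 129, which was at least 6.07-fold above the re-stimulated WT cells. Ifna4 was likewise well above background on that array alone, at 39.9, and the other Ifna genes used differed by less than 2-fold between genotypes. Over the list of interferons, 1 of 6 genes used was at least 2-fold higher in Bach2 KO cells before re-stimulation, Ifng (against 5.26% of all genes). After re-stimulation 2 of 10 used were higher, Ifnb1 and Ifna4 (against 5.17%), and 1 was lower, Ifnz at -1.08 (against 3.85%). Of 8 receptor and kinase genes used, 0 passed 2-fold between genotypes before re-stimulation. After it 3 were at least 2-fold lower in Bach2 KO cells, against 3.85% of all genes. Ifngr1, the ligand-binding chain for IFN-γ, read 45378 and 35846 before, and 26219 and 5751 after, a log2 difference of -2.19 after re-stimulation. Ifngr2 gave -1.08 and Ifnar2 -1.02 in the same comparison. Jak2 rose in both genotypes, by log2 values of 3.49 and 3.36.

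**Figure D4:**
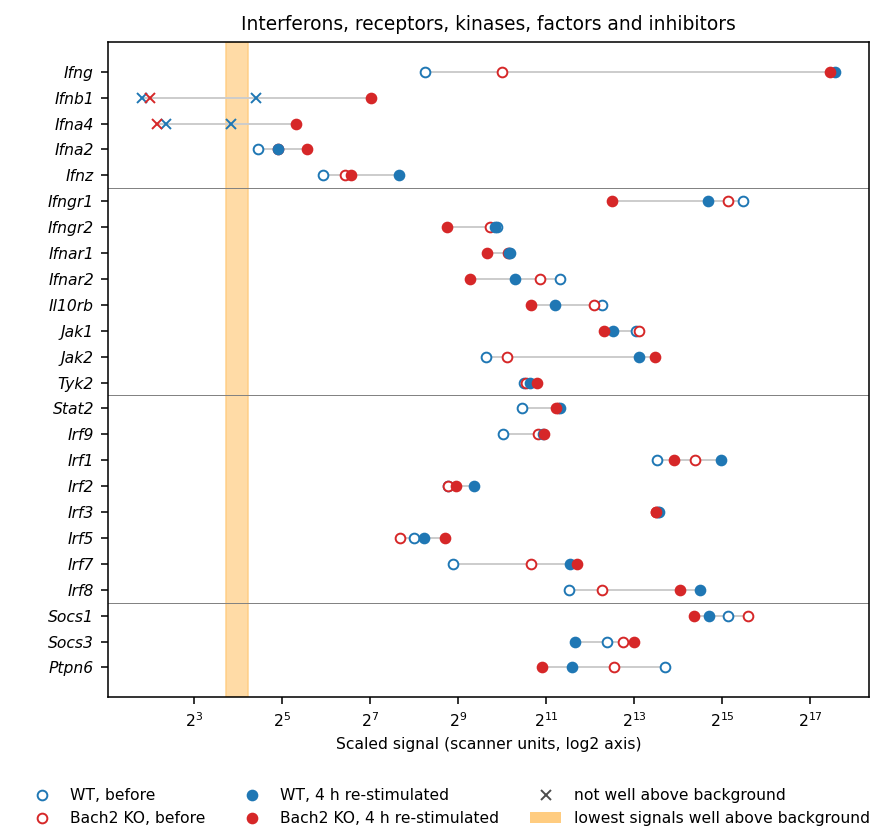
Scaled signal (log2 axis, scanner units) of interferon, receptor and kinase, transcription factor and inhibitor genes, separated by lines, on the 4 arrays, with open circles before and filled circles after re-stimulation, WT in blue and the cells labelled Bach2 KO in red, and crosses for signals not well above background. Ifngr1 stands lowest in re-stimulated Bach2 KO cells (5751), and Irf7 stands lowest in WT cells before re-stimulation (472).

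Among the transcription factors, Irf7, which drives type I interferon genes, read 472 and 1611 before, and 2982 and 3307 after. It was lowest in WT cells before re-stimulation, and its genotype difference went from 1.77, past 2-fold, to 0.15. Irf9, the DNA-binding partner of Stat2, read 1040.1 and 1809.7 before, and 1954 and 1994 after (log2 0.80 and 0.03). Irf1 was a factor at least 2-fold lower in Bach2 KO cells after re-stimulation (-1.08), with 0.87 before it. Among 7 inhibitors, Socs1, which blocks Jak kinases, read 36148 and 49568 before, and 26652 and 21122 after, genotype differences of 0.46 and -0.34. Socs3 was the inhibitor at least 2-fold higher in Bach2 KO cells after re-stimulation (1.34), and Ptpn6 the one at least 2-fold lower before it (-1.15).

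A separate list of 75 further interferon-inducible genes was read in the same way. Before re-stimulation 19 of 58 used were at least 2-fold higher in Bach2 KO cells (against 5.26% of all genes) and 0 lower (against 2.82%). The median log2 difference was 0.70. After re-stimulation 2 of 59 were higher, Ifitm6 and Cxcl9 (against 5.17%), and 1 was lower, Gbp5 (against 3.85%), with a median of 0.03. Re-stimulation raised 28 of 59 by at least 2-fold in WT cells (against 13.2% of all genes) and lowered 2 (against 13.5%). In Bach2 KO cells it raised 13 (against 12.4%) and lowered 4 (against 13.0%). Cxcl10, a chemokine for activated T cells, read 19.7 and 165 before, and 3872 and 2955 after. It was 3.06 higher on the log2 scale in Bach2 KO cells before re-stimulation and gave -0.39 after it. Gbp5 read 659 and 1279.8 before, and 8811 and 3337 after, log2 differences of 0.96 and -1.40. Ifitm6 was higher in Bach2 KO cells in both states, at 41.3 and 412 before and 283 in re-stimulated Bach2 KO cells, where the WT array gave no signal well above background. Of 12 MHC class I pathway genes, 0 passed 2-fold before re-stimulation and 1 after it, Nlrc5, the activator of that pathway, which was lower in Bach2 KO cells (-1.06).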

How the data were processed

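For each array the authors deposited an intensity per spot from Agilent Feature Extraction 10.7.3.1, background-subtracted and detrended by that software, with flags deposited by the authors for outlier, saturated and well-above-background spots. A table of log2 values deposited by the authors holds the log2 intensity less the 75th percentile of that array, and served as an alternative. Any filtering beyond this is not given in the sources used here. The number of arrays, 1 per condition on 1 slide scanned together, limits the precision.

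Spots flagged as uneven or outliers were left out (107 to 120 per array), replicate spots were averaged as log2 values, and arrays were scaled to its 75th percentile over 41173 probes. Of these, 27479 (66.7%) were named through transcript accessions in a RefSeq gene table (GRCm38.p6), and each gene was read from its brightest probe. The share of probes well above background was 53.6% to 54.0%. In a comparison a gene was used where it was so on at least 1 of both arrays, with the dimmer signal raised to the lowest one well above background. Cross-hybridization between near copies (Oas, Ifit, Gbp and Ifitm genes) was not analysed here. Members and lists were chosen with earlier results of these data known. Genes were counted past 2-fold, a rule of size. Members past 2-fold in any comparison and the 10 with the highest mean log2 signal were named with their 4 signals, the others with their range. Of the pathway lists, Ifng, Irf7, Irf9 and Socs1 were named, plus those past 2-fold between genotypes where they were counted. The further interferon-inducible genes were an exception. Those past 2-fold before re-stimulation, or moved past 2-fold by it, were counted and mostly not named. A few more pathway genes (Ifna4, Jak2, Cxcl10, Gbp5) were named after their values were seen. Alternatives were other scalings, normexp background correction (offset 50), the deposited log2 table, averages over a gene's probes, other filters and a 3-fold rule. A further gene of the pathway lists is not reported here. The steps were tested on simulated data. Python 3.11.15 with numpy 2.4.6, pandas 2.3.3 and matplotlib 3.10.9, were used, with limma 3.58.1 in R 4.3.3 for normexp.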

Additional observations from a re-analysis of the deposited data

Results flagged for a closer look

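For 7 members the arrays moved in opposite directions by more than 0.5 on the log2 scale on both sides, a size chosen after the values were seen. These were 7 of the 40 members well above background on all 4 arrays (17.5%), against 0.981% of 10810 genes. Igtp met the rule in both comparisons below with 1 and the same value, so the 8 differences come from 7 genes. With 1 array per condition, none of these differences was tested. Between the genotype difference before and after re-stimulation, the change on the log2 scale was -3.62 for Ifit3, -2.93 for Iigp1, -2.58 for Gbp2, -1.77 for Gbp3, -1.61 for Igtp and -1.52 for Ifi47. In each, the cells labelled Bach2 KO stood above WT cells before re-stimulation and below them after it. Between the re-stimulation differences of WT and Bach2 KO cells, the change was -1.61 for Igtp and -1.80 for Gbp4, with the WT value above 0 and the Bach2 KO value below it. Of the 7 members, 6 are IRG or GBP GTPases.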

How the results depend on the processing

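No paired analysis was possible because each condition has 1 array. Of 122 summary values under the alternatives, 115 stayed within their tolerance and 7 moved. No count of reversals is given, because counts of members could only be labelled as kept or moved. The deposited log2 table follows the same scaling as the main values, so its closeness to them was given in advance. With a 3-fold rule, 0 members were higher and 0 lower in Bach2 KO cells after re-stimulation, and 5 rose in Bach2 KO cells. Scaling to the median gave median re-stimulation differences of 1.22 in WT and 0.19 in Bach2 KO cells, with 1 member, Tap2, at least 2-fold lower in the latter, and normexp with quantile normalization gave 1.31 in WT cells. Over the alternatives that keep the 2-fold rule, between 16 and 19 members were higher in Bach2 KO cells before re-stimulation (median 0.78 to 0.86), and 3 to 5 after it (median -0.13 to -0.06). Signals near background set only bounds, as for Ifi44 in WT cells, and without replicates the spread between mice or cultures is unknown.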
